A study of Mus musculus with 24 samples.

Results

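Tbx21, Ifng, Il12rb2 and Stat4 are genes of the T helper 1 (Th1) programme, and Il17a, Il17f, Il22 and Il23r of the T helper 17 (Th17) programme. The 8 genes were taken as a list of factor, receptor and cytokine genes, and all 8 were found by their Entrez identifiers among the 27179 genes of the count table. Their RNA was followed in 24 RNA-seq libraries from the colon lamina propria of 8 mice with an Nmur1 iCre-eGFP allele, in which GFP marks cells that express Nmur1, the receptor of the neuropeptide neuromedin U (NMU). Colitis had been induced in all 8 mice with 3% dextran sulfate sodium (DSS) in the water for 5 days, and plain water followed for 3 days. Mice 1 to 4 were injected intraperitoneally with NMU every other day and mice 5 to 8 with phosphate-buffered saline (PBS). 3 populations were sorted from each mouse, which gave 6 groups of 4 libraries. They were GFP+ group 2 innate lymphoid cells (ILC2, gated as CD45+ Lin- CD90.2+ CD127+ KLRG1+), and NMUR1+ and NMUR1- CD4 T cells (CD45+ CD3+ CD5+ CD4+). No library came from mice without DSS. The sample labels name 4 mice for each treatment, whereas the design text gives 3.

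Library totals ran from 8485266 to 17854961 counts. Values are given as CPM (counts scaled to a common library total) on libraries scaled by the trimmed mean of M values (TMM), and mice are always listed in number order. The sorted labels were checked on their own genes. Nmur1 averaged 234 ± 56.6 CPM in ILC2, followed by 41.2 ± 24.2 in the NMUR1+ and 4.36 ± 2.55 in the NMUR1- T cell libraries (SD, n = 8 each). In mice 2 to 8 the NMUR1+ library had more Nmur1 (15.4 to 75.2 CPM) than any NMUR1- library (1.60 to 7.84 CPM). The library labelled NMUR1+ of mouse 1 went against its label, with 6.13 CPM (43 counts) beside 7.18 CPM in the NMUR1- library of the same mouse, and results that use it are also given without it, a setting added after the data were seen. In that library Gata3 was at 1968 CPM and Klrg1 at 1199 CPM, above all NMUR1- libraries (at most 668.5 and 186 CPM). The same order held for Gata3, the factor of type 2 lymphocytes, at 5639 ± 700.5, 1535 ± 265 and 495 ± 132 CPM, and for Klrg1, a receptor used in the ILC2 gate, at 1164 ± 379.5, 709.7 ± 231 and 110.5 ± 62.4 CPM. Cd3e, a chain of the T cell receptor complex, was at 5.71 ± 4.05 CPM in ILC2, followed by 856 ± 122 in NMUR1+ and 922 ± 69.4 in NMUR1- T cells, and Cd4 at 5.83 ± 4.83, 623 ± 133 and 729.8 ± 86.0 CPM. Immunoglobulin genes took 0.784% to 30.4% of the counts of NMUR1+ libraries, over 20% in mice 1, 4, 5 and 7, against 0.146% to 5.58% in NMUR1- libraries.

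Th1 cells are CD4 T cells that defend against intracellular microbes. Interleukin-12 signals through a receptor with the IL12RB2 chain to the transcription factor STAT4, which together with T-bet, the product of Tbx21, drives transcription of Ifng, and interferon gamma activates macrophages. Th17 cells, which are abundant in the gut lamina propria, depend on interleukin-23, whose receptor chain is IL23R. Interleukin-17A and 17F call in neutrophils, and interleukin-22 acts on the epithelium. Innate lymphoid cells share these modules without a T cell receptor. Group 1 cells (ILC1) use T-bet and interferon gamma, group 3 cells (ILC3) make interleukin-17 and interleukin-22, and ILC2 use GATA3.

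3 promoters are printed because they belong to the effector cytokines Ifng, Il17a and Il17f, of which the last pair are neighbours that varied together between mice. Of each, 220 bases are given, ending at the base before the start site in the RefSeq promoter table. For Il17f that site, at 20784270, lies 1004 bases inside the RefSeq gene span, which reaches further upstream, and for Ifng and Il17a it is the end of the span.
They were read from RefSeq on GRCm38.p6, 5' to 3' on the strand of the gene. Capitals mark TATAAA, the letters of a TATA box, and AGGTCA or its reverse complement, a half-site that nuclear receptors recognise.
Ifng, chr10:118440826-118441045, plus strand: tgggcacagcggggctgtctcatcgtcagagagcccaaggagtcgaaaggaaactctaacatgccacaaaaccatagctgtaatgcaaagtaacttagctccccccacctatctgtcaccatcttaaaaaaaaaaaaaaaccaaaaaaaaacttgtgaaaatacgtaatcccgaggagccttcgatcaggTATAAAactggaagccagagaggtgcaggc
Il17a, chr1:20730685-20730904, plus strand: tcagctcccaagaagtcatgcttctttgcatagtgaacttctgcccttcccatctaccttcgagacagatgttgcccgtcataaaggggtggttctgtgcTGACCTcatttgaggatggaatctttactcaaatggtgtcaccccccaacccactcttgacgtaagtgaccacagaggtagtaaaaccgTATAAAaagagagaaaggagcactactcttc
Il17f, chr1:20784271-20784490, minus strand: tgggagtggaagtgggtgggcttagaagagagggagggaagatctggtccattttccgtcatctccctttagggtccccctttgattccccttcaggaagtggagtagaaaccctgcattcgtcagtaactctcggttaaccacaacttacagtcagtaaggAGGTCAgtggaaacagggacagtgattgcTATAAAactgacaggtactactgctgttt
In all 3 the TATA letters lie close to the start, at 30 to 25 bases before it in Ifng, 31 to 26 in Il17a and 29 to 24 in Il17f. The AGGTCA half-site is present at 120 to 115 bases before the start of Il17a, on the opposite strand, and at 58 to 53 bases before that of Il17f, but not in the Ifng window.
Over 32851 RefSeq promoter windows of 220 bases, searched on both strands, TATAAA occurred in 10.9% and AGGTCA in 12.4%. Of the 8 genes, 4 held TATAAA (the 3 shown and Il22) and 4 held AGGTCA (Il17a, Il17f, Il23r and Stat4).
The STAT letters TTCNNNGAA occurred in 6.05% of windows and, of the 8 genes, in Il12rb2; the T-box letters GGTGTGA occurred in 2.92% and in none of the 8. None of the 4 motifs overlaps another in these windows. Such matches describe the letters and are not binding sites.

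The genes lie in 3 neighbouring groups and 2 single loci. Il17a (chr1:20730905-20734496, plus strand) and Il17f (chr1:20777146-20785274, minus strand) are 42.6 kb apart. Il12rb2 (chr6:67285986-67376293) and Il23r (chr6:67422932-67491855), both on the minus strand, are 46.6 kb apart. Il22 (chr10:118204584-118210047) and Ifng (chr10:118441046-118445894) lie 231 kb apart on the plus strand, with Iltifb, a near-identical copy of Il22, between them (chr10:118289629-118295038, minus strand). Tbx21 lies at chr11:97098007-97115331 on the minus strand and Stat4 at chr1:51987106-52107189 on the plus strand (all GRCm38.p6 gene spans, exons and introns). Their Entrez identifiers are 57765 for Tbx21, 15978 for Ifng, 16162 for Il12rb2, 20849 for Stat4, 16171 for Il17a, 257630 for Il17f, 50929 for Il22 and 209590 for Il23r.

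Levels were also set per kilobase of exon to compare genes, and they then depend on the exon length used. For Il17f that length was 2022 bases, whereas its longest transcript has 1178 bases. On the shorter length its values would be higher, and its rank on that length was not tested. Stat4 was the highest of the 8 genes in ILC2, at 85.2 CPM per kb (mean of 8 libraries), followed by Tbx21 at 18.7. The other 6 lay between 0.0691 (Il12rb2) and 7.89 (Ifng). In NMUR1+ T cells Il22 led at 79.7 CPM per kb, before Stat4 at 67.5, Il17a at 47.4 and Ifng at 46.5, and Il12rb2 was last at 9.10. In NMUR1- T cells 6 genes lay between 26.4 (Il17f, on 2022 bases) and 82.3 (Stat4) CPM per kb. Il22 and Ifng led there, at 228 and 201 CPM per kb. These 2 means rest on mice 3, 7 and 8, with 485 to 542 CPM per kb of Il22 and 323 to 509 of Ifng, whereas the other 5 libraries had 28.4 to 90.3 and 43.5 to 174.5, overlapping Stat4.

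**Figure D1:**
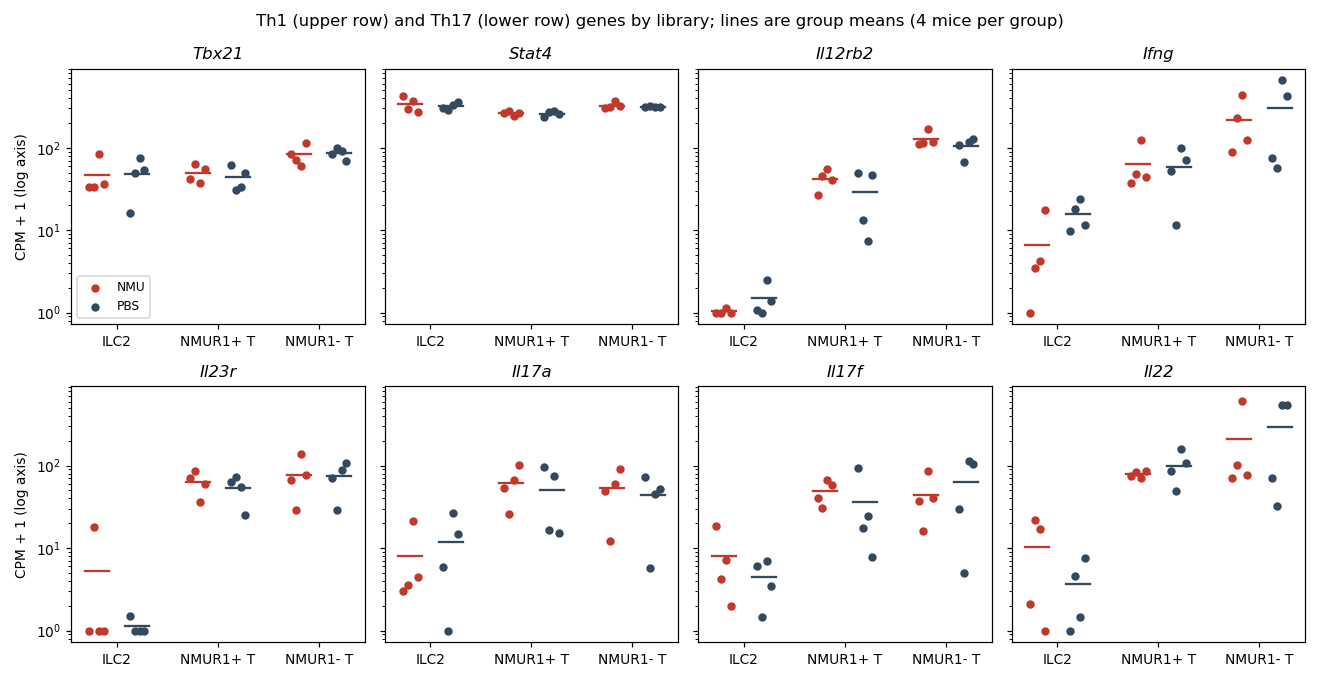
Level of each gene in every library, as CPM + 1 on a log axis, with NMU (red) left of PBS (dark blue) in each population; points are mice and lines are group means of 4. Tbx21 and Stat4 in ILC2 overlap the ranges of both T cell populations, and the means of the other 6 genes are lower in ILC2. In NMUR1- T cells Il22 splits into high and low mice in both treatments, whereas Ifng splits in PBS mice and is spread out in NMU mice.

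Between NMUR1+ and NMUR1- T cells 3 of the 4 Th1 genes differed. Il12rb2, Tbx21 and Stat4 were lower in NMUR1+ cells, and neither Ifng nor any of the 4 Th17 genes was called; whether the Th1 and Th17 genes differ in this was not tested. These 3 of the 8 genes were called lower and none higher (edgeR quasi-likelihood test, Benjamini-Hochberg adjusted over 13509 genes, threshold 0.05), where 2.83% of all genes were called lower, 5.49% higher and 8.31% either way. All 4 Th1 genes were lower in NMUR1+ cells in 8 of 8 mice, as were 6.3% of all genes. In bulk samples, fewer cells of a type and less RNA per cell cannot be told apart.

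Il12rb2, the signalling chain of the interleukin-12 receptor, had 25.7, 44.2, 53.6 and 39.9 CPM in NMUR1+ T cells of NMU mice, against 111, 112, 168.1 and 117 CPM in their NMUR1- cells. In PBS mice it had 48.5, 12.4, 6.38 and 45.5 CPM in NMUR1+ cells, against 107, 66.6, 117 and 128 CPM in NMUR1- cells. Every NMUR1+ library lay below every NMUR1- library, and PBS mice 6 and 7 were the lowest of the NMUR1+ libraries. The fold change was 3.40-fold lower in NMUR1+ (log2 -1.77, SE 0.413, adjusted p = 0.00941). Tbx21, the Th1 lineage factor, had 40.5, 62.9, 36.8 and 54.9 CPM in NMUR1+ cells of NMU mice, against 84.2, 70.4, 59.5 and 114 CPM in their NMUR1- cells. In PBS mice the values were 61.0, 30.1, 32.7 and 49.1 CPM in NMUR1+ cells, against 83.3, 97.2, 89.5 and 67.9 CPM in NMUR1- cells. It was lower in NMUR1+ in 8 of 8 mice, with a small overlap between the populations (log2 -0.86, SE 0.258, adjusted p = 0.0397).

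Stat4, which relays the interleukin-12 signal, had 265, 278, 244 and 266 CPM in NMUR1+ cells of NMU mice, against 300.4, 311, 368 and 316 CPM in their NMUR1- cells. In PBS mice it had 234, 267, 277 and 259 CPM in NMUR1+ cells, against 313, 317, 310.1 and 315 CPM in NMUR1- cells. The populations did not overlap, but the difference was small, 1.22-fold lower in NMUR1+ (log2 -0.29, SE 0.0833, adjusted p = 0.0342). The share of all genes without overlap was not counted for this or the other comparisons of populations. Ifng, the Th1 cytokine, had 36.2, 47.4, 124.7 and 43.8 CPM in NMUR1+ cells of NMU mice, against 86.8, 226, 439 and 122 CPM in their NMUR1- cells. In PBS mice the values were 51.9, 10.4, 98.3 and 69.3 CPM in NMUR1+ cells, against 73.3, 56.4, 659.8 and 419 CPM in NMUR1- cells. Each of the 8 mice had less Ifng in NMUR1+ than in NMUR1- cells, by 4.27-fold in the fit, and the edgeR test did not pass the threshold (log2 -2.09, SE 0.699, adjusted p = 0.0747). DESeq2 (adjusted p = 0.0258) and limma voom (adjusted p = 0.0280) called it.

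On the Th17 side, Il23r, the interleukin-23 receptor chain, had 70.3, 85.5, 35.2 and 58.7 CPM in NMUR1+ cells of NMU mice, against 66.3, 27.7, 138 and 75.7 CPM in their NMUR1- cells. In PBS mice it had 62.4, 71.4, 53.8 and 24.5 CPM in NMUR1+ cells, against 70.7, 28.0, 88.3 and 106 CPM in NMUR1- cells. The ranges overlapped throughout, and the difference was not called (log2 -0.38, 95% interval -1.95 to 1.19; adjusted p = 0.858). Il17a had 52.0, 24.8, 66.8 and 102.3 CPM in NMUR1+ cells of NMU mice, against 48.2, 11.2, 58.3 and 89.7 CPM in their NMUR1- cells. In PBS mice it had 95.8, 15.5, 72.9 and 14.2 CPM in NMUR1+ cells, against 72.1, 4.77, 44.4 and 50.5 CPM in NMUR1- cells. It was higher in NMUR1+ cells in 7 of 8 mice, all but mouse 8, by a fitted difference that was not called (log2 0.23, 95% interval -1.31 to 1.76; adjusted p = 0.926).

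Il17f had 39.8, 29.3, 66.3 and 58.0 CPM in NMUR1+ cells of NMU mice, against 36.1, 15.0, 84.7 and 39.1 CPM in their NMUR1- cells. In PBS mice it had 93.2, 16.3, 23.4 and 6.86 CPM in NMUR1+ cells, against 29.0, 3.92, 114 and 105 CPM in NMUR1- cells. Its level ranged over 29.1-fold between NMUR1- libraries and 13.6-fold between NMUR1+ libraries, and the populations overlapped (log2 -0.35, 95% interval -1.72 to 1.01; adjusted p = 0.846). Il22 had 74.3, 83.3, 70.1 and 84.5 CPM in NMUR1+ cells of NMU mice, against 69.9, 100.2, 601 and 76.3 CPM in their NMUR1- cells. In PBS mice it had 84.2, 47.7, 157 and 106 CPM in NMUR1+ cells, against 69.1, 31.5, 540.3 and 539 CPM in NMUR1- cells. The NMUR1- libraries of mice 3, 7 and 8 stood at 5.37 times the next highest or more, while NMUR1+ libraries differed by at most 3.30-fold. In the fit this was not called, and 4 mice had more and 4 less Il22 in NMUR1+ than in NMUR1- cells (log2 -1.51, 95% interval -3.29 to 0.28; adjusted p = 0.333).

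The 3 Th1 calls depended on how the comparison was set up. Of a list of 14 T cell markers 4 were lower in NMUR1+ cells and 0 higher, and the summed level of the list was 6845 to 9175 CPM in NMUR1+ libraries, against 8386 to 9572 CPM in NMUR1- libraries (median log2 -0.22, beside -0.012 over all genes). With libraries scaled on that list instead of TMM, a setting added after the data were seen, Il12rb2 was the 1 gene of the 8 still called (log2 -1.54, adjusted p = 0.0413), with Tbx21 at -0.65 (adjusted p = 0.116) and Stat4 at -0.08 (adjusted p = 0.758). There the median of all genes was 0.19 and 1310 genes were called higher and 93 lower, against 741 and 382 with TMM. Without the 4 NMUR1+ libraries over 20% immunoglobulin none was called (Il12rb2 log2 -1.61, adjusted p = 0.0857), and none within NMU mice or within PBS mice alone (Il12rb2 -1.63 and -1.90). With all libraries kept but immunoglobulin genes left out, 4 of the 8 genes were called lower, as with DESeq2 and limma voom. Without the library labelled NMUR1+ of mouse 1, Il12rb2 alone was called (log2 -1.69, adjusted p = 0.0263), with Tbx21 at -0.82 (adjusted p = 0.0801) and Stat4 at -0.29 (adjusted p = 0.0520). Leaving out mouse 1, 3, 5 or 6 left 2 calls, leaving out mouse 4, 7 or 8 left Il12rb2 as the 1 call (adjusted p = 0.0320, 0.00616 and 0.0264), and with mouse as a replicate block Tbx21 lost its call (log2 -0.85, adjusted p = 0.0900). B and plasma cell markers summed to 2226 to 99743 CPM in NMUR1+ cells and 1121 to 11445 CPM in NMUR1- libraries, macrophage and dendritic cell markers to 2347 to 6103 and 663.1 to 2325 CPM. Regulatory T cell markers summed to 8544 to 13195 and 5288 to 8149 CPM, and CD8 T cell markers to 12.5 to 46.2 and 42.2 to 118 CPM. Their part in these differences was not tested.

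**Figure D2:**
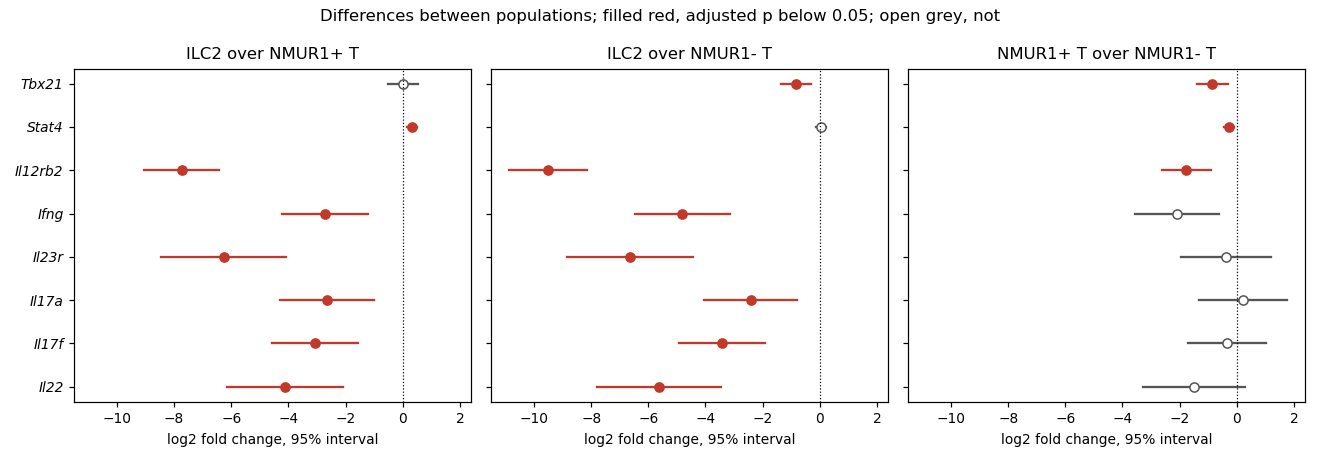
log2 fold changes of the 8 genes with 95% intervals from the edgeR fit of 24 libraries, for ILC2 over NMUR1+ T cells, ILC2 over NMUR1- T cells and NMUR1+ over NMUR1- T cells (8 libraries each); filled red points have an adjusted p below 0.05. Il12rb2 and Il23r are farthest below 0 in ILC2, Stat4 is close to 0 in both ILC2 comparisons and Tbx21 against NMUR1+ but not against NMUR1- cells, and only Il12rb2, Tbx21 and Stat4 are called between the T cell populations.

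ILC2 were next compared with each T cell population. Il12rb2, Il23r, Ifng, Il22, Il17f and Il17a were lower in ILC2 than in either T cell population, while Stat4 was higher than in NMUR1+ cells and Tbx21 lower than in NMUR1- cells. Against NMUR1+ T cells 6 of the 8 genes were called lower and 1, Stat4, higher, where 23.5% of all genes were called lower and 15.1% higher. Against NMUR1- T cells 7 were called lower and none higher, where 24.1% of genes were called lower and 16.4% higher. Both comparisons use the same ILC2 libraries, and their all-gene median log2 was -0.10 and -0.12.

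Stat4 had 419, 297, 371 and 271 CPM in ILC2 of NMU mice and 305, 284, 329 and 362 CPM in those of PBS mice, beside 234 to 278 CPM in NMUR1+ cells and 300.4 to 368 CPM in NMUR1- T cells. It was higher in ILC2 than in NMUR1+ cells in 8 of 8 mice (log2 0.33, SE 0.0833, adjusted p = 0.00273), and against NMUR1- cells the difference was near 0 (log2 0.048, 95% interval -0.12 to 0.22). Tbx21 had 32.5, 32.0, 82.3 and 35.1 CPM in ILC2 of NMU mice and 15.2, 48.7, 73.5 and 52.4 CPM in those of PBS mice, a range that spans the whole range of NMUR1+ cells (30.1 to 62.9 CPM). It did not differ detectably from NMUR1+ cells (log2 0.018, 95% interval -0.51 to 0.55) and was lower than in NMUR1- cells in 7 of 8 mice (log2 -0.84, SE 0.257, adjusted p = 0.0116). Mouse 3 of the NMU group had the most Tbx21 of all ILC2 libraries. In that library the 12-gene list of natural killer (NK) cell and ILC1 markers summed to 1282 CPM, against 43.2 to 229 CPM in the other NMU and 35.6 to 186 CPM in the PBS ILC2 libraries. Gzma, a granule protease, made up 1193 CPM of that sum, while Eomes and 4 Klra receptor genes were at 0 counts in all 8 ILC2 libraries; the part of such cells in the Tbx21 level was not tested.

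The interleukin-12 receptor chain was nearly missing from ILC2. Il12rb2 had 2 counts in all over the 4 NMU libraries, in mouse 3, and 22 over the 4 PBS libraries, of which 16 were in mouse 7, and 4 of the 8 ILC2 libraries had none. A count of 0 allows up to 3 counts, or 0.214 to 0.338 CPM in these libraries (counting error only). Its ILC2 mean was 0.760% of the NMUR1+ and 0.226% of the NMUR1- mean. The same shares of 14 T cell markers had medians of 4.11% and 4.34%, from 0.107% to 120% and from 0.0920% to 96.9%. The fitted differences were log2 -7.74 (SE 0.633, adjusted p = 4.69e-09) against NMUR1+ and -9.50 (SE 0.653, adjusted p = 2.58e-10) against NMUR1- T cells, and -8.83 and -10.63 without mouse 3 and -8.63 and -10.24 without mouse 7.

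Il23r had 153 counts in the ILC2 of NMU mouse 2 and 6 in those of PBS mouse 5, and none in the other 6 ILC2 libraries. The 17.2 CPM of mouse 2 lay below all T cell libraries (24.5 to 85.5 CPM in NMUR1+, 27.7 to 138 CPM in NMUR1-), and the differences were log2 -6.27, SE 1.04, adjusted p = 9.00e-05 against NMUR1+ and log2 -6.65, SE 1.05, adjusted p = 4.51e-05 against NMUR1- cells. Without mouse 2 they were -10.51 and -11.17, and without mouse 5 -8.11 and -8.55, all called. In the ILC2 library of mouse 2, Il1r1, an ILC3 and Th17 marker that encodes an interleukin-1 receptor, was at 14.4 CPM, against 0 to 1.84 CPM in the other 7, and Cxcr5, a chemokine receptor of the same list, at 5.40 CPM, against 0 to 2.78 CPM. Ccr6, a chemokine receptor of the same list, had no count in NMU ILC2. The 12 genes of the ILC3 list summed to 3674 to 5103 CPM in NMU and 2778 to 3681 CPM in PBS libraries. The part of ILC3 in the Il23r counts was not tested.

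The cytokine genes were low in ILC2 but not absent. Ifng had 0, 2.48, 3.20 and 16.6 CPM in ILC2 of NMU mice and 8.66, 17.0, 23.2 and 10.6 CPM in those of PBS mice, and every library was below every NMUR1- library (56.4 to 659.8 CPM). Ifng in ILC2 overlapped that in NMUR1+ cells (10.4 to 124.7 CPM), and PBS mouse 6 had more in ILC2 than in its NMUR1+ cells (10.4 CPM). The difference was log2 -2.71, SE 0.723, adjusted p = 0.00583 against NMUR1+ and log2 -4.81, SE 0.792, adjusted p = 7.46e-05 against NMUR1- T cells (-3.55 and -5.65 without mouse 4). Il22 had 1.09, 20.8, 15.9 and 0 CPM in NMU and 0, 3.64, 0.461 and 6.63 CPM in PBS ILC2, below all libraries of both T cell populations (lowest 31.5 CPM). It was called lower against NMUR1+ (log2 -4.12, SE 0.960, adjusted p = 0.00219) and against NMUR1- cells (log2 -5.63, SE 1.03, adjusted p = 2.21e-04).

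Il17a had 1.98, 2.59, 20.5 and 3.43 CPM in NMU and 4.91, 0, 25.5 and 13.7 CPM in PBS ILC2, with mice 3, 7 and 8 above the rest. Il17f had 17.3, 3.26, 6.24 and 1.00 CPM in NMU and 5.00, 0.475, 6.00 and 2.47 CPM in PBS ILC2, with mouse 1 above the rest. Their ranges overlapped the lowest T cell libraries, but in each of the 8 mice the ILC2 library had less than either T cell library. Il17a differed by log2 -2.63, SE 0.785, adjusted p = 0.0119 against NMUR1+ and by log2 -2.41, SE 0.778, adjusted p = 0.0183 against NMUR1- cells (-3.28 and -3.08 without mouse 3), and Il17f by log2 -3.06, SE 0.716, adjusted p = 0.00201 and log2 -3.42, SE 0.726, adjusted p = 8.07e-04. As a share of the T cell means, ILC2 held 17.0% of the NMUR1+ and 3.93% of the NMUR1- level of Ifng, 16.3% and 19.1% for Il17a, 12.5% and 9.78% for Il17f, 6.86% and 2.40% for Il22, and 3.84% and 2.95% for Il23r, of whose 159 ILC2 counts 153 are from mouse 2. The T cell markers fell on both sides of these shares. Cd5 (0.107% and 0.0920%), Cd3d (0.316% and 0.320%), Cd6, Trac, Cd3e and Cd4 (0.936% and 0.799%) were below them, Cd247 (2.78% and 2.82%) and Cd3g (5.44% and 5.86%) near the lower of them, and Lat, Trbc2, Lef1, Tcf7, Bcl11b and Trbc1, for a T cell receptor constant region (120% and 90.7%), were at 19.0% or more. The part of T cells in the ILC2 counts was not tested.

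**Figure D3:**
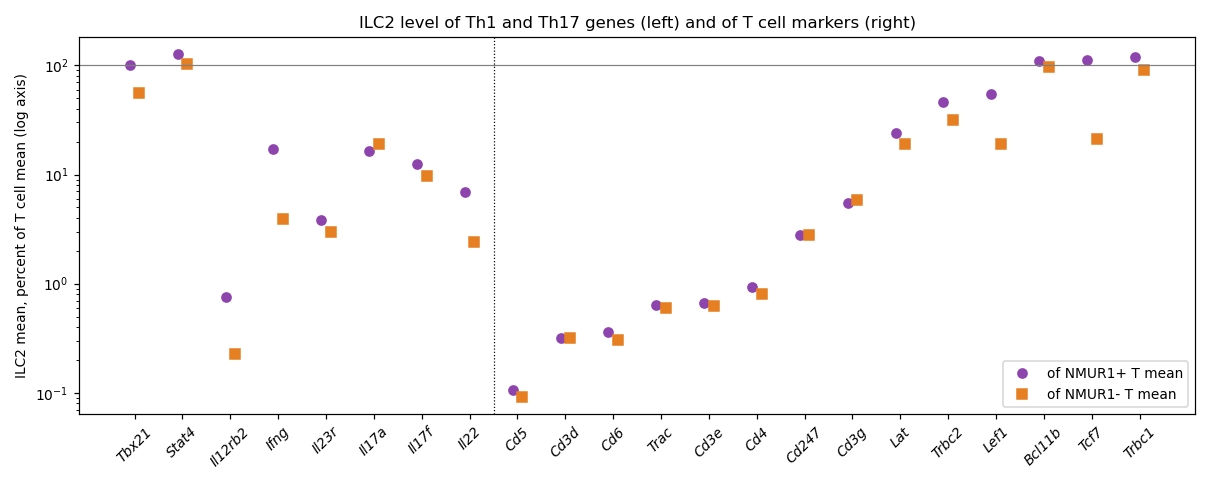
Mean CPM in ILC2 as percent of the mean in NMUR1+ (purple circles) and NMUR1- T cells (orange squares), 8 libraries each, on a log axis, for the 8 genes (left of the dotted line) and the 14 T cell list genes (right, in order of their share). Il12rb2 lies at the height of the 6 lowest T cell list genes, the cytokine genes between 2.40% and 19.1%, and Stat4 and Tbx21 between 55.8% and 126%.

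Il12rb2 and Il23r kept their calls against both T cell populations in every alternative run, and all 7 calls against NMUR1+ cells held without the library labelled NMUR1+ of mouse 1. The Il17a call was not stable: against NMUR1+ cells it was lost without mouse 5 (adjusted p = 0.0580) or without the 4 libraries over 20% immunoglobulin (0.223), where Il17f was at log2 -2.28 and still called, and against NMUR1- cells without mouse 1, 4 or 5 (0.0573, 0.0735 and 0.0703). The Tbx21 call against NMUR1- cells was lost without mouse 1 or 4 (0.0511 and 0.0754). Within NMU or PBS mice alone 4 or 5 of the 8 genes were called in each comparison, and limma voom did not call Ifng (0.120) or Il17f (0.0574) against NMUR1+ cells.

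The effect of the peptide was tested inside each sorted population. No gene of the 8 was called in any of the 3 populations. In ILC2, 6 of the 8 genes had enough counts to be tested and 0 were called, where 0.66% of 11205 genes were called either way. In NMUR1+ and in NMUR1- T cells 0 of 8 were called, where 0% of 12061 and 0% of 12103 genes were. At an unadjusted p under 0.05 edgeR had 307 genes in NMUR1+ and 877 in NMUR1- cells, none of them among the 8, and DESeq2 called 2 and 21 genes, again none of the 8. Without the library labelled NMUR1+ of mouse 1 none of the 8 was called in NMUR1+ cells either, with log2 values of -0.32 (Il22) to 0.71 (Il12rb2). No gene of the 8 had NMU libraries that all lay above or below the PBS libraries in any population, whereas 9.38% of genes in ILC2, 1.87% in NMUR1+ and 4.48% in NMUR1- cells did.

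Stat4 had the narrowest intervals. Its log2 interval was -0.28 to 0.41 in ILC2, -0.23 to 0.27 in NMUR1+ and -0.18 to 0.26 in NMUR1- cells. Tbx21 averaged 45.5 ± 24.6 CPM in NMU and 47.4 ± 24.1 CPM in PBS ILC2, 48.8 ± 12.3 and 43.2 ± 14.5 CPM in NMUR1+, and 82.0 ± 23.6 and 84.5 ± 12.4 CPM in NMUR1- cells (SD, n = 4 each). Its difference was log2 -0.051, 95% interval -0.48 to 0.38, in NMUR1- cells, with a wider interval in ILC2 (-1.12 to 0.96). Il12rb2 averaged 40.8 ± 11.6 CPM in NMU and 28.2 ± 21.9 CPM in PBS NMUR1+ cells (log2 0.54, 95% interval -0.75 to 1.83), and 127 ± 27.5 and 105 ± 26.9 CPM in NMUR1- cells (log2 0.28, 95% interval -0.20 to 0.75).

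For the cytokines most intervals were wide, less so that of Il22 in NMUR1+ cells. Ifng averaged 5.56 ± 7.47 CPM in NMU and 14.9 ± 6.63 CPM in PBS ILC2 (log2 -1.42, 95% interval -3.94 to 1.10), 63.0 ± 41.4 CPM in NMU and 57.5 ± 36.7 CPM in PBS NMUR1+ cells (log2 0.13, 95% interval -1.40 to 1.67), and 219 ± 158.5 CPM in NMU and 302 ± 291 CPM in PBS NMUR1- cells (log2 -0.47, 95% interval -2.72 to 1.78). Il22 averaged 9.46 ± 10.5 CPM in NMU and 2.68 ± 3.09 CPM in PBS ILC2 (log2 1.79, 95% interval -2.01 to 5.59), 78.0 ± 7.01 and 98.9 ± 45.8 CPM in NMUR1+ cells (log2 -0.34, 95% interval -0.98 to 0.29), and 212 ± 259.9 and 295 ± 283 CPM in NMUR1- cells (log2 -0.48, 95% interval -3.36 to 2.40). Such intervals include no change as well as changes of several fold in either direction in NMUR1- cells. Il17a in ILC2 was at log2 -0.65, 95% interval -3.56 to 2.26, and Il17f at log2 0.96, 95% interval -1.40 to 3.33. In NMUR1+ cells they were at 0.31 (-1.36 to 1.99) and 0.48 (-1.20 to 2.15), and in NMUR1- cells at 0.27 (-1.69 to 2.23) and -0.54 (-2.89 to 1.82). Il23r was at log2 0.23, 95% interval -0.51 to 0.98, in NMUR1+ and log2 0.067, 95% interval -1.15 to 1.28, in NMUR1- cells. The lowest unadjusted p of a test of whether the NMU effect differed between populations was 0.0167, for Il12rb2 in ILC2 against NMUR1+ cells, which rests on the few ILC2 counts named above. After adjustment 0 of the 8 genes were called in any of the 3 tests, where 0.725% of genes were called for ILC2 against NMUR1+, 0.533% for ILC2 against NMUR1- and 0% for NMUR1+ against NMUR1- cells.

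**Figure D4:**
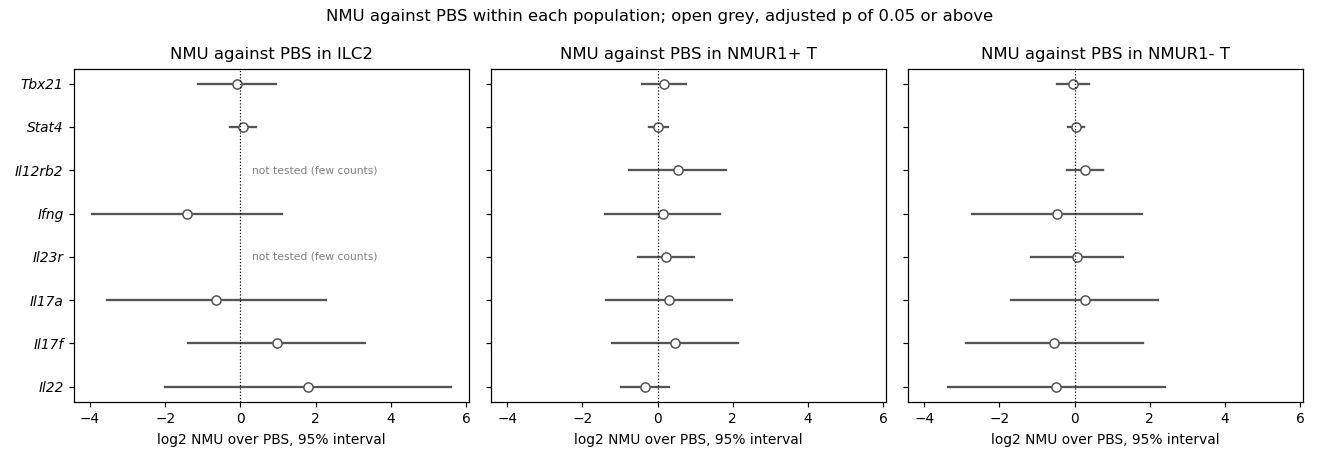
log2 NMU over PBS with 95% intervals within ILC2, NMUR1+ and NMUR1- T cells (4 mice each; edgeR); open grey points did not reach an adjusted p below 0.05, and Il12rb2 and Il23r had too few counts in ILC2 to be tested. All intervals include 0, that of Stat4 is narrow, and those of Ifng and Il17a in all 3 populations and of Il22 in ILC2 and NMUR1- cells span several log2 units.

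The cytokine genes varied widely between mice of the same treatment. In NMUR1- cells Ifng ranged over 11.7-fold, Il17a over 18.8-fold, Il22 over 19.1-fold and Il17f over 29.1-fold between libraries, while Tbx21 ranged over 1.92-fold and Stat4 over 1.22-fold. Mice 3 (NMU), 7 and 8 (both PBS) had the 3 highest values of Ifng, Il22 and Il17f in NMUR1- cells, and the same 3 mice had the 3 highest values of Ifng in NMUR1+ cells. This did not hold for the other 2 genes in NMUR1+ cells, where the highest were mice 5, 3 and 4 for Il17f and 7, 8 and 4 for Il22. For Il17a mice 4 (NMU) and 5 (PBS) were the highest in both T cell populations. PBS mouse 6 was the lowest of the NMUR1- libraries for Ifng, Il12rb2, Il17a, Il17f and Il22. In NMUR1- cells of mice 3, 7 and 8 the neutrophil list summed to 32.0, 2.87 and 51.1 CPM, against 1.37 to 7.64 CPM in the other 5. The NK and ILC1 list summed to 209, 62.4 and 95.1 CPM, against 62.7 to 167.97 CPM in the others, the gamma-delta T cell list to 48.7, 44.8 and 32.7 CPM against 25.2 to 66.3 CPM, and the regulatory T cell list to 5936, 6071 and 5288 CPM against 6053 to 8149 CPM. Their part was not tested.

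**Figure D5:**
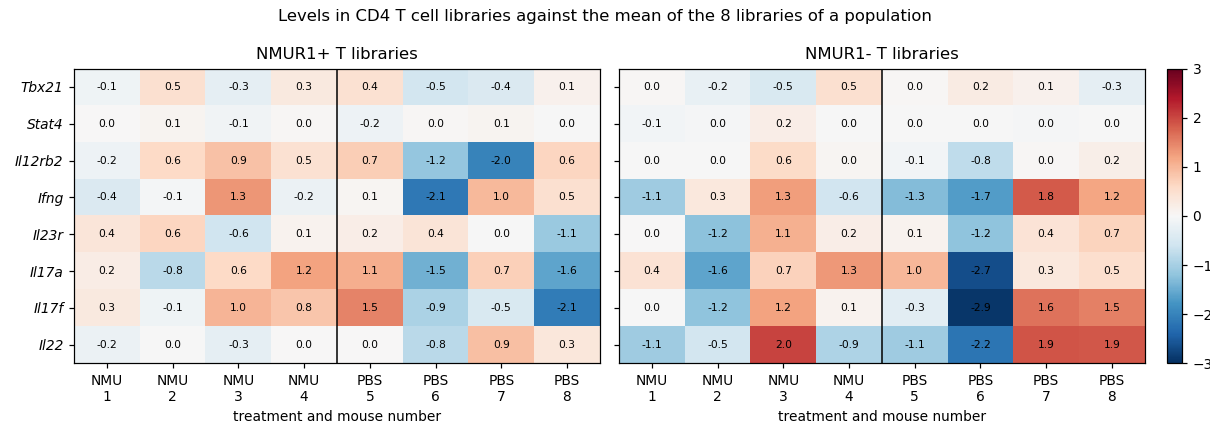
log2(CPM + 1) of each gene in each CD4 T cell library minus the mean of the 8 libraries of that population (red above, blue below; the number is in each cell), NMU mice 1 to 4 left of PBS mice 5 to 8. In NMUR1- cells mice 3, 7 and 8 are high for Ifng, Il17f and Il22 and mouse 6 is low, and Stat4 hardly varies.

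Some pairs of the genes varied together over the 16 CD4 T cell libraries. After the mean of each group was subtracted, the highest Pearson's r of log2 CPM was 0.85, for Ifng with Il22. It was 0.82 for Il17a with Il17f, 0.71 for Il17f with Il23r and 0.69 for Il17f with Il22. Lower values were 0.55 for Ifng with Il17f, 0.55 for Il22 with Il23r and 0.41 for Il17a with Il22. Tbx21 with Ifng was at -0.19 and Stat4 with Ifng at 0.09. The spread of r over all pairs of genes was not measured. These are descriptions over libraries that come as pairs from 8 mice. Over all genes, the 3 most alike by the same measure were Cdc45 (0.93), Clec4e (0.89) and Ifi211 (0.88) for Ifng; Gstt1 (0.93), Iltifb (0.93) and Uhrf1 (0.90) for Il22; and Pde5a (0.92), Il17re (0.92) and Ostf1 (0.87) for Il17f, of which Il17re encodes a receptor chain for another interleukin-17. They were Ccdc88a (0.92), Tspan5 (0.85) and Sowahc (0.85) for Il17a and Ccl20 (0.89), Acsbg1 (0.87) and Fam124b (0.86) for Il23r, of which Ccl20 is the ligand of the Th17 chemokine receptor CCR6. They included P2rx7 (0.90) for Il12rb2, and were Rnf111 (0.85), Ccdc117 (0.82) and Samd4b (0.82) for Tbx21 and Tmem30a (0.80), Mzt1 (0.80) and Mis18a (0.80) for Stat4.

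Iltifb, the copy that followed Il22, may share its reads. The longest annotated transcripts of both genes (GENCODE vM21) are 97.4% identical over 1110 aligned bases, and 41.0% of the 50-base windows of Iltifb occur in Il22 unchanged, so that reads could be split between them. Il17a and Il17f are 61.9% identical and share no such window. Iltifb had 0 counts in ILC2, 74 in NMUR1+ and 589 in NMUR1- libraries, or 0%, 0.927% and 1.86% of the counts of the pair. Adding them to Il22 changed none of its calls. How reads that match both copies were counted is not given in the sources used here. If they were left out, the printed level of Il22 would be too low by an amount these counts do not show.

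The wider programmes were described by 28 other Th1 and 34 other Th17 pathway genes. Under NMU, ILC2 had 1 of 26 tested Th1 genes lower and 2 of 26 tested Th17 genes higher, with median log2 of -0.14 and 0.11 beside -0.03 over all genes, of which 0.66% were called either way. In NMUR1+ and in NMUR1- cells none of either list was called. The 2 were Irf4, an interferon regulatory factor needed for Th17 and also for Th2 cells, at 193 ± 23.7 CPM in NMU and 46.8 ± 9.81 CPM in PBS ILC2 (log2 2.02, SE 0.185, adjusted p = 0.00156), and Rbpj, the DNA-binding partner of Notch, at 191 ± 45.6 and 79.8 ± 5.44 CPM (log2 1.24, SE 0.186, adjusted p = 0.0207). The Th1-list gene was Ly6c2, best known as a monocyte surface marker, at 0.0190 ± 0.0381 CPM in NMU and 14.0 ± 20.3 CPM in PBS ILC2 (log2 -8.81, SE 1.57, adjusted p = 0.0398). Marker lists of other cells lay on both sides of 0. Regulatory T cell markers were above 0 in 8 of 9 tested (median log2 0.41, 2 called higher) and ILC3 markers in 7 of 9 (0.54, 1 called higher). Of the 12 regulatory T cell markers, however, 3 had no count in NMU ILC2, among them the lineage factor gene Foxp3, with Gpr83 and Lrrc32. All 12 had counts in PBS ILC2. NK and ILC1 markers were above 0 in 3 of 4 (0.59) and gamma-delta T cell markers in 3 of 5 (0.71). Epithelial markers were below 0 in 5 of 7 (-1.67, 1 called higher). The following lists lay the same way as Ly6c2, with none called. Macrophage and dendritic cell markers summed to 201 to 994 CPM in NMU and 283 to 2648 CPM in PBS ILC2 (14 of 15 tested below 0, median log2 -1.70), B and plasma cell markers to 944 to 1757 and 2129 to 17111 CPM (7 of 8, -2.78), and fibroblast markers to 1.38 to 41.4 and 14.0 to 477 CPM (9 of 9, -4.06). Their part in the Ly6c2 difference was not tested. The Irf4 call held in every alternative run, whereas that of Rbpj was lost without any 1 of mice 3 to 8 (adjusted p 0.0547 to 0.0798) and that of Ly6c2 without any 1 mouse (0.0528 to 0.212). The NMU effect on Irf4 differed between ILC2 and NMUR1+ cells (log2 2.17, adjusted p = 0.000151) and between ILC2 and NMUR1- cells (log2 2.06, adjusted p = 0.000361).

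Between NMUR1+ and NMUR1- T cells 4 of 27 tested Th1 genes were higher and 2 lower (median log2 0.19), and 4 of 31 tested Th17 genes higher and 1 lower (0.08), beside -0.01 over all genes, of which 5.49% were called higher and 2.83% lower. Il21, a cytokine of follicular helper and Th17 cells, was at 1.87 ± 1.65 CPM in NMUR1+ cells and 20.4 ± 9.99 CPM in NMUR1- cells and lower in 8 of 8 mice (log2 -3.73, SE 0.615, adjusted p = 9.84e-04). Nkg7, a granule protein of cytotoxic and Th1 cells, was at 229 ± 44.2 and 394 ± 170.2 CPM (log2 -0.75, SE 0.219, adjusted p = 0.0345), and Il18r1, a chain of the interleukin-18 receptor, at 48.3 ± 14.7 and 76.5 ± 15.5 CPM (log2 -0.69, SE 0.195, adjusted p = 0.0285). Those that were higher included Ccl3, at 28.0 ± 12.4 CPM in NMUR1+ cells and 6.10 ± 2.43 CPM in NMUR1- cells (log2 2.16, SE 0.525, adjusted p = 0.0113), Il1rn, the interleukin-1 receptor antagonist, at 418 ± 244 and 63.6 ± 20.8 CPM (log2 2.71, SE 0.783, adjusted p = 0.0380), Ly6c2, Irf1, Tmem176b and Ltb4r1. Of these 9 calls that of Il21 was lost in 1 of 19 alternatives, within NMU mice alone (adjusted p = 0.0914). Ccl3 and Ltb4r1 lost theirs in 3 of 19, Irf1 and Tmem176b in 7, Ly6c2 in 8, Il18r1 in 9, Nkg7 in 11 and Il1rn in 12. Leaving out 1 mouse ended all but the calls of Il21 and Ccl3 (adjusted p up to 0.133), and leaving out the 4 libraries over 20% immunoglobulin all but those of Il21 and Ltb4r1. Those of Nkg7, Il18r1 and Il1rn were also lost without the library labelled NMUR1+ of mouse 1 (0.0741, 0.0538 and 0.0503). Monocytes and macrophages also express Ccl3 and Il1rn, and macrophage and dendritic cell marker sums were higher in NMUR1+ libraries as given above; their part was not tested.

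In ILC2 against NMUR1+ cells 7 of 27 tested Th1 genes were higher and 12 lower, and 12 of 31 tested Th17 genes higher and 15 lower; against NMUR1- cells the counts were 7 and 12, and 11 and 14. Of all genes 15.1% were called higher and 23.5% lower against NMUR1+, and 16.4% and 24.1% against NMUR1- cells. Genes lower in ILC2 included Cxcr3, the chemokine receptor of Th1 cells, at 5.63 ± 4.58 CPM in ILC2 and 203 ± 32.7 CPM in NMUR1+ cells (log2 -5.26, SE 0.701, adjusted p = 8.27e-06), Gzmb, a granule protease, at 18.1 ± 10.6 and 1492 ± 732 CPM (log2 -6.39, SE 0.438, adjusted p = 8.67e-10), and Ccr6, the chemokine receptor of Th17 cells, at 0.154 ± 0.436 and 85.6 ± 29.7 CPM (log2 -10.54, SE 0.682, adjusted p = 1.17e-09). Higher in ILC2 were Csf2, which encodes the growth factor GM-CSF, at 16.1 ± 9.80 and 0.226 ± 0.239 CPM (log2 6.23, SE 0.671, adjusted p = 1.30e-07), Il2 at 35.7 ± 35.3 and 2.95 ± 2.19 CPM (log2 3.32, SE 0.430, adjusted p = 1.87e-06) and Fosl2, an AP-1 factor, at 979.8 ± 182 and 248 ± 37.6 CPM (log2 1.97, SE 0.210, adjusted p = 1.43e-07). Lta, Cxcr6 and Ikzf3 were also higher and Ly6c2 and Il1r1 lower against NMUR1+ cells, and Ifngr2 and Nfkbiz higher and Slamf1 lower against NMUR1- cells. Ccl20 had no count in ILC2, against a mean of 14.9 CPM in NMUR1+ cells and 19.0 CPM in NMUR1- cells.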

How the data were processed

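RNA of sorted colon lymphocytes was made into libraries with a low-input kit from NEBNext, per the labels' protocols; this kit marks no strand and adds no molecular identifiers. The authors deposited raw read counts per Entrez gene; STAR 2.5.3 and the mm10 build are named in the submitters' processing notes, whereas no source used here names the counting program or annotation. Of 27179 identifiers, 93.0% matched a symbol in the RefSeq gene table of GRCm38.p6, and the unmatched ones held 0.986% of counts.

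The tests were run in edgeR 4.0.16 under R 4.3.3 (robust quasi-likelihood, filterByExpr with a minimum count of 10, TMM, Benjamini-Hochberg adjustment over all genes tested, threshold 0.05). NMU and PBS were compared within a population on 8 libraries, populations and differences of the NMU effect in 1 fit of 24 libraries with 6 group means. The standard error is the log2 fold change over the root of F. The tests were also run on simulated counts with known changes put into genes that averaged above 10 CPM over the libraries. The share of changes recovered is not given here. The simulation left out the sharing of mice between populations, and the power for the 8 genes was not measured. DESeq2 1.42.0, limma 3.58.1 (voom), other scalings, filters, left-out mice and libraries and mouse as a block were alternatives.

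The 3 populations of a mouse share the animal, per the labels. Deviations of NMUR1+ and NMUR1- libraries of the same mouse correlated at 0.0353 to 0.512 (median 0.258), those of ILC2 and T cell libraries at medians of 0.0672 and 0.0626. No replicates agreed within counting noise (lowest chi-square per degree of freedom 12.8). Exon lengths and transcripts were taken from GENCODE vM21. Floors cover counting error only.

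The members and lists were chosen with earlier results of these data known. Named are the 8 genes, 5 label checks and, per list, comparison and direction, up to 3 called genes with the largest change that reach a mean of 10 CPM. Genes most alike are the 3 with the highest group-centred r over 16 CD4 T cell libraries, predicted genes, pseudogenes and receptor V segments left out. Values of some genes are not reported here.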

Additional observations from a re-analysis of the deposited data

Results flagged for a closer look

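In 8 of the 48 sets of 4 libraries (8 genes, 6 groups) the highest library stood apart from the other 3 by more than Dixon's 95% critical value of 0.829 for the gap over the range. For independent normal values about 1 in 20 would pass. These sets share mice and are skewed, and where the other 3 libraries had no count the gap equals the range whatever the value. The 8 can therefore not be set against that share.

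6 of them were NMU mouse 3 with high Th1 or Th17 genes. In ILC2 it had 82.3 CPM of Tbx21, against 32.0 to 35.1 CPM in the other NMU mice, 20.5 CPM of Il17a, against 1.98 to 3.43 CPM, and 0.152 CPM of Il12rb2, against 0, which is 2 counts. In NMUR1+ T cells it had 124.7 CPM of Ifng, against 36.2 to 47.4 CPM. In NMUR1- T cells it had 168.1 CPM of Il12rb2, against 111 to 117 CPM, and 601 CPM of Il22, against 69.9 to 100.2 CPM.

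The other 2 were Il23r in ILC2, at 17.2 CPM in NMU mouse 2 and at 0.500 CPM in PBS mouse 5, with no count in the other 3 mice of each group. The causes were not tested.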

How the results depend on the processing

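Counts of called members under an alternative stayed within 1.5 times the first value in 144 cases and moved more in 10. Many of the 144 were 0 beside 0, as no member was called for NMU against PBS or for the differences of the NMU effect in any run. The moves were 8 of 20 alternatives for NMUR1+ over NMUR1-, 1 of 19 for ILC2 over NMUR1+ and 1 of 17 for ILC2 over NMUR1-. Values of single genes in 1271 cases kept direction and side of the threshold, 151 lost the call, 3 gained it and 39 changed sign; the causes were not tested. Members called between NMUR1+ and NMUR1- T cells were 3, and 1 to 3 without 1 mouse, 1 with T cell scaling and 1 without the library labelled NMUR1+ of mouse 1 (both chosen after the data were seen, as was Il22 with Iltifb), 0 without libraries over 20% immunoglobulin, and 0 within NMU and 0 within PBS mice. With DESeq2, with limma voom and with immunoglobulin genes left out, 4 members were called. They were 4 for ILC2 over NMUR1+ within PBS mice, against 7, and 4 for ILC2 over NMUR1- within NMU mice, against 7.

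None of the values that changed sign (log2) was called. For NMU against PBS, limma voom gave Tbx21 0.062 and Il17a 0.83 in ILC2 and Il17f 0.054 in NMUR1- cells; T cell scaling gave Stat4 -0.077 in NMUR1+, and Stat4 -0.033 and Il23r -0.0061 in NMUR1- cells; without libraries over 20% immunoglobulin Stat4 was -0.015 in NMUR1+ cells. For NMUR1+ over NMUR1- Il17a was -0.84 without those libraries and Il17f 0.15 within NMU mice. For ILC2 over NMUR1+ Tbx21 was -0.056 with limma voom, -0.10 within NMU mice, -0.039 with mouse as a replicate block and -0.0042 without the library labelled NMUR1+ of mouse 1.

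Without 1 mouse, NMU against PBS in ILC2 ranged from -0.53 to 0.21 for Tbx21, -0.048 to 0.15 for Stat4, -2.06 to 0.18 for Il17a and -0.010 to 1.36 for Il17f. In NMUR1+ cells it ranged from -0.43 to 0.52 for Ifng, -0.031 to 0.058 for Stat4, -0.058 to 0.84 for Il17a and -0.0030 to 0.43 for Il23r. In NMUR1- cells it ranged from -0.24 to 0.075 for Tbx21, -1.06 to 0.25 for Ifng, -0.028 to 0.081 for Stat4, -0.12 to 0.62 for Il17a and -0.38 to 0.34 for Il23r. For ILC2 over NMUR1+ Tbx21 ranged from -0.24 to 0.29, and for ILC2 over NMUR1- Stat4 from -0.00064 to 0.11.

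Genes called over the whole table were 74 for NMU in ILC2 (12 without mouse 3, 1053 in the fit of 24 libraries), 1123 for NMUR1+ over NMUR1- (218 within NMU mice, 1600 with DESeq2), 5218 and 5471 for ILC2 over NMUR1+ and NMUR1- (down to 3287 within NMU and 3437 within PBS mice), 98 and 72 for the differences of the NMU effect between ILC2 and NMUR1+ or NMUR1- (15 to 516 and 20 to 386), and 0 between T cell populations (4 with DESeq2). No paired analysis was possible for NMU against PBS because those mice differ; in the comparisons of populations the replicate block ended the Tbx21 call in NMUR1+ over NMUR1- (adjusted p = 0.0900) and no other call of the 8 genes. Depth limits Il12rb2 and Il23r in ILC2, and 4 mice per group leave wide intervals for the cytokines.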
